A study of Homo sapiens with 6 samples.

Results

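The 10 genes described here are 4 inhibin beta subunits (INHBA, INHBB, INHBC and INHBE), the activin antagonist FST, the ligand BMP4, the inhibitory SMAD6 and the BMP target genes ID1, ID2 and ID3. They were matched by symbol to the gene identifiers of the deposited tables. All 10 were found among 60483 identifiers, and all 10 had enough counts to be among the 15025 genes tested. RNA sequencing was done in HepG2, an established human hepatocellular carcinoma cell line. Cells received an FTO siRNA (3 libraries) or a control siRNA (3 libraries). FTO is a demethylase of N6-methyladenosine in RNA, and the series looked for genes it regulates in this cancer. Both groups were the same line, grown in the same serum-containing medium; the sequence of the siRNA, its dose and the time of harvest were not given in the labels. The labels do not state whether replicate libraries are separate cultures, so the p-values speak of the spread among these libraries only, and that spread may be technical. In a bulk sample, fewer cells of a type and less RNA per cell cannot be told apart.

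Activins are dimers of inhibin beta subunits. They bind the type II receptors ACVR2A and ACVR2B and signal through SMAD2 and SMAD3, and follistatin (FST) binds them outside the cell and blocks them. BMPs signal through type II receptors such as BMPR2 and type I receptors such as ACVR1 to SMAD1, SMAD5 and SMAD9, which switch on ID1, ID2, ID3 and the feedback inhibitor SMAD6. ID proteins lack a DNA-binding domain and hold E proteins such as TCF4 away from DNA. In liver, BMP signalling induces the iron hormone hepcidin (HAMP), and INHBC and INHBE are the beta subunits made mainly by hepatocytes.

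Total counts lay between 16407912 and 18390953 in FTO siRNA libraries and between 15713279 and 16739978 in control siRNA libraries. At this depth 3 counts correspond to at most 0.191 CPM (counts scaled to library size), a floor that covers counting error only. FTO had 11.2, 14.5 and 5.21 CPM in FTO siRNA libraries 1, 2 and 3, against 40.8, 37.96 and 38.8 CPM in control siRNA libraries 1, 2 and 3. Its level thus dropped by 1.93 ± 0.32 in log2 terms, with an adjusted p = 0.00932 (quasi-likelihood test of edgeR, adjusted by Benjamini-Hochberg). FTO siRNA 3 stood apart: 8.54% of tested genes differed there more than 2-fold from the mean of the other FTO siRNA libraries, against 2.01% for FTO siRNA 1 and 1.07% for FTO siRNA 2. For this reason the log2 fold changes below are given with and without it. FTO siRNA 3 also had the lowest FTO level, so the fits without it leave out the strongest drop in FTO RNA. Of all genes tested, 7.53% were called higher and 3.83% lower at an adjusted p under 0.05, 11.4% together. Without FTO siRNA 3 these shares were 15.9% and 14.1%, 30.0% together. CPM values are scaled by TMM, and errors are SD over n = 3 libraries for levels and standard errors for log2 fold changes, FTO siRNA over control siRNA.

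Of the 10 genes, INHBA rose and the other 9 did not pass the test. That is 1 gene in 10, where 11.4% of all tested genes passed in either direction. The median log2 fold change was 0.41 over the 10 genes and 0.04 over all genes. The 10 genes were chosen with earlier results of these data known. At an unadjusted p under 0.05 there were 3 of the 10, INHBA, INHBB and INHBE, beside 27.9% of all genes. Without FTO siRNA 3, 5 of the 10 passed: INHBA, INHBB, ID1 and ID3 were higher and INHBC was lower, where 30.0% of all genes passed. The values of the groups did not overlap for INHBA and INHBB, both above the controls, or 2 of the 10, beside 36.5% of all genes. FTO siRNA 3 held the highest of the 6 values for INHBA, INHBC, INHBE and FST and the lowest for SMAD6, ID1, ID2 and ID3. These 8 of 10 stand beside 57.9% of all tested genes for which it was the highest or the lowest.

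**Figure D1:**
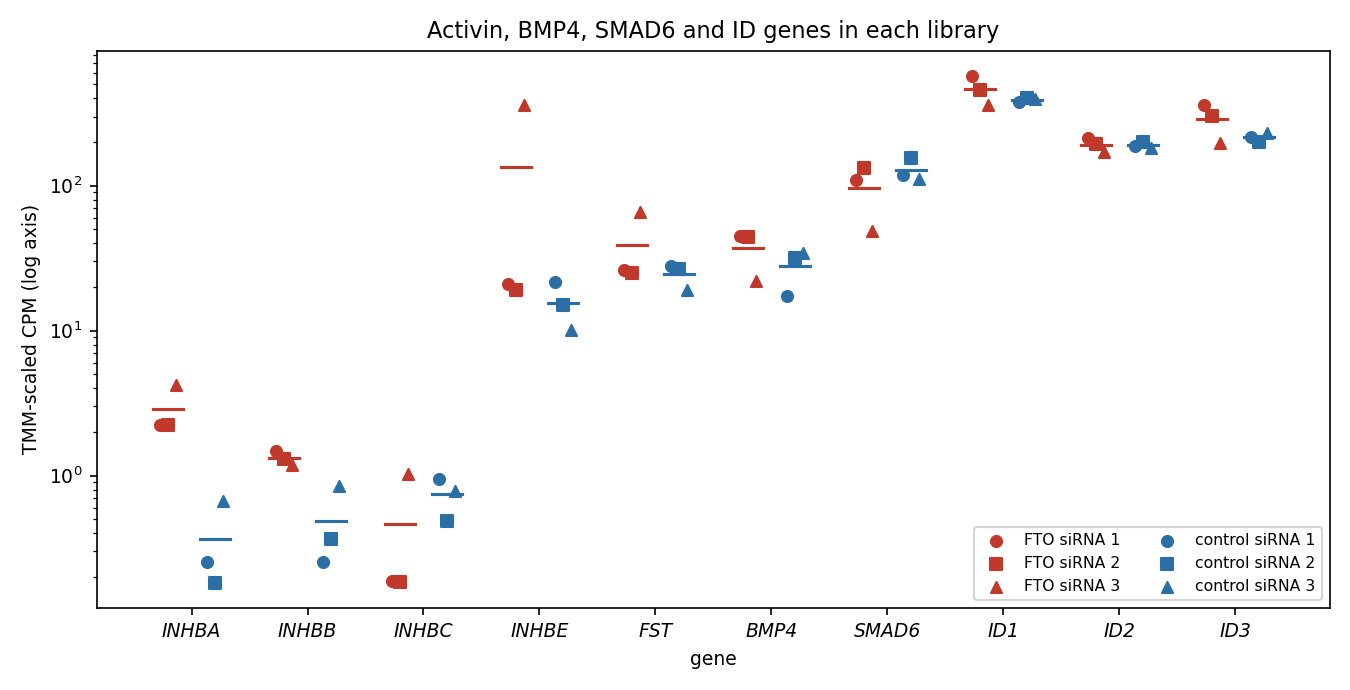
CPM of each gene (log axis) in FTO siRNA libraries (red) and control siRNA libraries (blue); symbols mark libraries 1, 2 and 3 and lines the means. INHBE reached 362 CPM in FTO siRNA 3, while the other libraries lay at 21.5 CPM or below.

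Under control siRNA, the genes covered a wide range of levels once divided by exon length. ID1 was the highest with 318 ± 9.53 CPM per kb of exon, then ID3 with 120.3 ± 8.06 and ID2 with 86.2 ± 4.23 CPM per kb, and the control values of these 3 did not overlap. SMAD6 followed with 15.01 ± 2.69 CPM per kb, and its control values lay above those of BMP4. BMP4 (9.03 ± 2.99), FST (8.27 ± 1.57) and INHBE (5.16 ± 1.90 CPM per kb) overlapped in neighbouring pairs and cannot be ordered beyond their spread. INHBC (0.372 ± 0.118), INHBB (0.152 ± 0.0981) and INHBA (0.0442 ± 0.0313 CPM per kb) came last, again with overlap between neighbours. HepG2 cells under control siRNA thus held much more RNA of INHBE than of any other beta subunit. After FTO siRNA, ID1 was still the highest per kb, with 376 ± 84.98, and ID3 with 159 ± 45.5 stood above ID2 with 86.96 ± 9.39 in each library. INHBE reached 120.02 CPM per kb in FTO siRNA 3, a level above that of ID3 in the same library.

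INHBA (ENSG00000122641.9, chromosome 7) encodes the beta A subunit of activin A. It had 36, 36 and 82 counts in FTO siRNA libraries 1, 2 and 3, against 4, 3 and 11 counts in control siRNA libraries 1, 2 and 3. In CPM these were 2.23, 2.22 and 4.19 with FTO siRNA, against 0.253, 0.183 and 0.664 with control siRNA. Each FTO siRNA library was above every control, and FTO siRNA 3 was the highest. INHBA rose by 2.96 ± 0.50 on the log2 scale (edgeR adjusted p = 0.0102), and by 2.54 ± 0.43 without FTO siRNA 3 (adjusted p = 0.00338). The call was lost without control 1 (2.73, adjusted p = 0.0642) and without control 2 (2.63, adjusted p = 0.0566), where 2.11% and 2.52% of all genes passed. The RefSeq promoter of this gene (GRCh38.p14, chr7:41703041-41703340, minus strand, from 250 bases before to 50 after the annotated start) is shown because it belongs to the gene that passed. Capitals mark a TATA core with its first base at -11 from the annotated start. This motif occurs in 11.5% of the RefSeq promoter windows and was chosen after the windows had been seen.
INHBA: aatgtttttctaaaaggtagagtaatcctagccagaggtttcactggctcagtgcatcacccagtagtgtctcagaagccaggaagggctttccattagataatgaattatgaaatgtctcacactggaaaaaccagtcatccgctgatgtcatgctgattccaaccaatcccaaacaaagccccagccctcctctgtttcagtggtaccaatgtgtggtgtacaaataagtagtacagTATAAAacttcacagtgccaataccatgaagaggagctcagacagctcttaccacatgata

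INHBB (ENSG00000163083.5, chromosome 2), which encodes the beta B subunit of activin B, had 24, 21 and 23 counts with FTO siRNA, against 4, 6 and 14 with control siRNA. This gave 1.49, 1.30 and 1.18 CPM in FTO siRNA libraries, against 0.253, 0.366 and 0.845 CPM in controls. The groups did not overlap, and FTO siRNA 3 lay close to the other FTO siRNA libraries. The log2 fold change was 1.41 ± 0.44 and missed the threshold (adjusted p = 0.0733); without FTO siRNA 3 it was 1.46 ± 0.46 and passed (adjusted p = 0.0387). With any other library left out it lay between 1.08 (without control 1) and 2.03 (without control 3) and did not pass.

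INHBC (ENSG00000175189.3, chromosome 12), for the beta C subunit, was the member with the fewest counts in FTO siRNA libraries. It had 3, 3 and 20 counts in FTO siRNA libraries, against 15, 8 and 13 in controls. FTO siRNA 1 and 2 lay below every control, and FTO siRNA 3 lay above them. The log2 fold change was -0.58 ± 0.64 (adjusted p = 0.602) over all libraries. Without FTO siRNA 3, INHBC fell by 1.98 ± 0.58 in log2 terms (adjusted p = 0.0303), a value that rests on 3 counts in each remaining FTO siRNA library.

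INHBE (ENSG00000139269.2, chromosome 12) lies next to INHBC and encodes the beta E subunit, a factor that hepatocytes secrete. It had 337, 308 and 7082 counts in FTO siRNA libraries 1, 2 and 3, against 340, 246 and 168 in control siRNA libraries 1, 2 and 3. As CPM these were 20.9, 19.02 and 362 with FTO siRNA, against 21.5, 14.99 and 10.1 with control siRNA. A single library made the difference between the groups, and FTO siRNA 1 and 2 lay within the range of the controls. FTO siRNA 3 was 18.1 times the mean of FTO siRNA 1 and 2, and its ratio ranked 4 among 12495 genes whose average log2 CPM reached 1. The log2 fold change was 3.11 ± 1.07 (adjusted p = 0.099), and 0.33 ± 0.25 without FTO siRNA 3 (adjusted p = 0.345). INHBE was not called in either fit.

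Counted together, the beta subunits had 24.8, 22.7 and 368 CPM in FTO siRNA libraries 1, 2 and 3, against 23.0, 16.02 and 12.4 CPM in controls 1, 2 and 3. INHBE supplied most of these counts in every library. Its share was 84.2% (95% Wilson interval 80.4 to 87.5) in FTO siRNA 1, 83.7% (79.6 to 87.1) in FTO siRNA 2 and 98.3% (97.9 to 98.5) in FTO siRNA 3. In controls 1, 2 and 3 it was 93.7% (90.7 to 95.7), 93.5% (89.9 to 95.9) and 81.6% (75.7 to 86.3). Intervals cover counting error only. Apart from FTO siRNA 3, the shares of the groups overlapped.

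**Figure D2:**
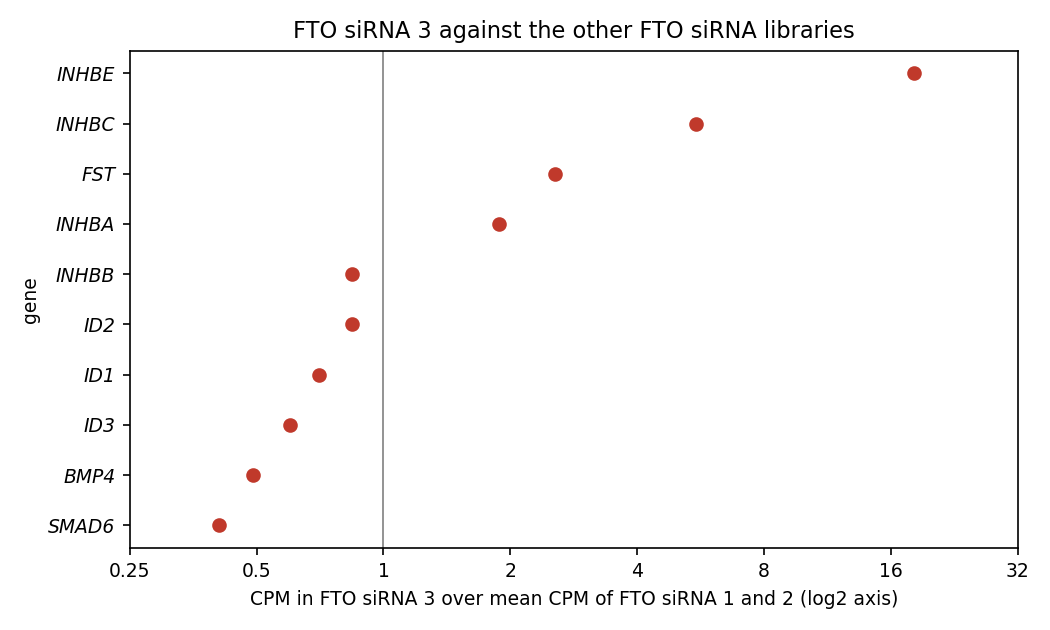
Ratio of CPM in FTO siRNA 3 to the mean CPM of FTO siRNA 1 and 2 (log2 axis), one point per gene. INHBE stood at 18.1, INHBC at 5.51 and FST at 2.55, while SMAD6 stood at 0.406 and BMP4 at 0.49.

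FST (ENSG00000134363.10, chromosome 5), the follistatin gene, had 26.3, 24.95 and 65.4 CPM in FTO siRNA libraries, against 27.8, 26.7 and 19.2 CPM in controls. Only FTO siRNA 3 left the range of the controls. The log2 fold change was 0.67 ± 0.37 (adjusted p = 0.274), and 0.035 ± 0.17 without FTO siRNA 3 (adjusted p = 0.895). FSTL3, a relative of follistatin that also binds activins, had 123, 90.4 and 269 CPM with FTO siRNA, against 32.1, 54.5 and 66.5 CPM with control siRNA, with no overlap. FSTL3 rose by 1.66 ± 0.42 (adjusted p = 0.038), and by 1.03 ± 0.25 without FTO siRNA 3 (adjusted p = 0.014). Its call was lost without FTO siRNA 1, control 1, control 2 or control 3 (highest adjusted p 0.153). The difference between FST and FSTL3 was not tested.

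BMP4 (ENSG00000125378.14, chromosome 14) encodes a BMP ligand of early liver development. It had 44.9, 44.5 and 21.9 CPM in FTO siRNA libraries, against 17.3, 31.9 and 34.3 CPM in controls. FTO siRNA 1 and 2 were above every control and FTO siRNA 3 lay among them. The log2 fold change was 0.41 ± 0.33 (adjusted p = 0.455), and 0.66 ± 0.24 without FTO siRNA 3 (adjusted p = 0.0619). It was 0.24 without FTO siRNA 1, 0.23 without FTO siRNA 2 and 0.13 without control 1. SMAD6 (ENSG00000137834.13, chromosome 15), which blocks BMP receptors and their SMADs, had 109, 132 and 49.0 CPM with FTO siRNA, against 119, 155 and 112 CPM with control siRNA. Here FTO siRNA 3 was the lowest of the 6 libraries, and FTO siRNA 1 and 2 overlapped the controls or lay just below them. The log2 fold change was -0.41 ± 0.32 (adjusted p = 0.449), and -0.12 ± 0.16 without FTO siRNA 3 (adjusted p = 0.607). Neither gene was called in either fit.

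The ID genes had the highest levels of the 10 in CPM per kb under control siRNA. ID1 (ENSG00000125968.8, chromosome 20) had 571, 459 and 361 CPM in FTO siRNA libraries 1, 2 and 3, against 379, 401 and 397 CPM in controls 1, 2 and 3. ID3 (ENSG00000117318.8, chromosome 1) had 359.9, 301 and 198 CPM with FTO siRNA, against 216, 202 and 231 CPM with control siRNA. For both, FTO siRNA 1 and 2 lay above every control and FTO siRNA 3 below every control, so the groups overlapped. FTO siRNA 1 and 2 lay above every control for 31.4% of all tested genes. The log2 fold changes were 0.24 ± 0.19 for ID1 (adjusted p = 0.446) and 0.41 ± 0.22 for ID3 (adjusted p = 0.261). Without FTO siRNA 3 both passed, ID1 with 0.36 ± 0.12 (adjusted p = 0.0423) and ID3 with 0.58 ± 0.12 (adjusted p = 0.00626). Without FTO siRNA 1, the highest library for both, ID1 was at 0.051 ± 0.16 (adjusted p = 0.871) and ID3 at 0.19 ± 0.20 (adjusted p = 0.575).

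ID2 (ENSG00000115738.8, chromosome 2) had 212, 193 and 171 CPM in FTO siRNA libraries, against 187, 200.4 and 182 CPM in controls. The controls lay between the highest and the lowest FTO siRNA library. Its log2 fold change was 0.013 ± 0.14 (adjusted p = 0.967), and 0.063 ± 0.10 without FTO siRNA 3 (adjusted p = 0.681). An antisense gene, ID2-AS1, overlaps ID2; it held 169 counts over the 6 libraries, and the labels do not say whether counting used strand. The order of the FTO siRNA libraries, 1 above 2 above 3, was the same for ID1, ID2 and ID3, but the spread among them was wider for ID1 (SD 105 CPM, beside 11.7 CPM in controls) and ID3 (SD 81.8 CPM, beside 14.5 CPM) than for ID2 (SD 20.7 CPM, beside 9.33 CPM).

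**Figure D3:**
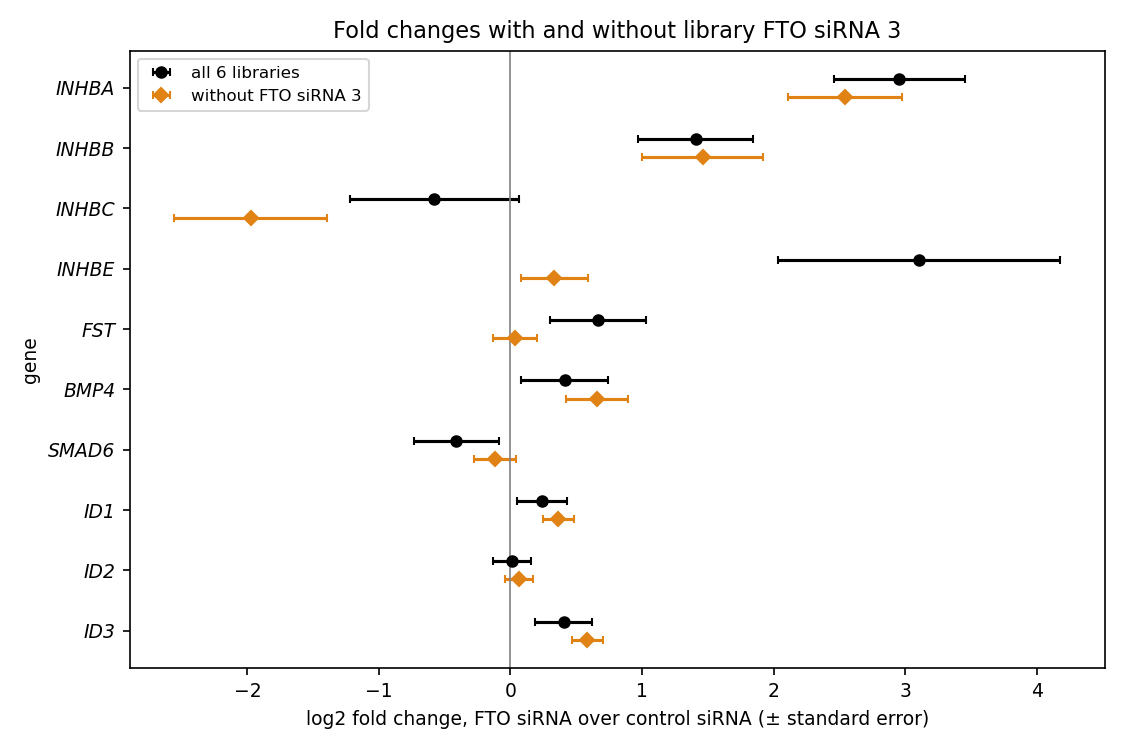
Log2 fold change, FTO siRNA over control siRNA, with its standard error for each gene, over all 6 libraries (black circles) and without FTO siRNA 3 (orange diamonds). INHBE moved to 0.33 and FST to 0.035 without that library, while INHBA stayed at 2.54.

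Profiles over the 6 libraries, centred on their own mean, were compared by the root mean square difference of log2 CPM among 12459 genes. ID1 and ID3 differed by 0.126, ID1 and ID2 by 0.149 and ID2 and ID3 by 0.261. The nearest genes to ID1 were VRK3 (0.0262), ST20-AS1 (0.0269) and HTATIP2 (0.0292). Nearest to ID2 were PTPN2 (0.0227), REPS1 (0.0278) and PRKAG1 (0.0324), and nearest to ID3 were EXOSC5 (0.0245), TMEM147 (0.0312) and RPL19, a ribosomal protein gene (0.0321). Each of these genes was nearer to its ID gene than any other ID gene was.

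The RefSeq promoter table (GRCh38.p14) held 11 windows for 9 of the 10 genes, all but INHBE. Windows are shown for SMAD6 (chr15:66701986-66702285, plus strand), ID1 (chr20:31605039-31605338, plus strand), ID2 (chr2:8681806-8682105, plus strand) and ID3 (chr1:23559452-23559751, minus strand). These are the BMP targets among the 10 genes that were lowest in FTO siRNA 3. Capitals mark matches, on either strand, to the motifs searched: the SMAD palindrome GTCTAGAC, the GC element GGCGCC, the cAMP response element TGACGTCA, the composite element TGATGNAAN and the TATA core TATAAA. The motifs were chosen after the windows had been seen.
SMAD6: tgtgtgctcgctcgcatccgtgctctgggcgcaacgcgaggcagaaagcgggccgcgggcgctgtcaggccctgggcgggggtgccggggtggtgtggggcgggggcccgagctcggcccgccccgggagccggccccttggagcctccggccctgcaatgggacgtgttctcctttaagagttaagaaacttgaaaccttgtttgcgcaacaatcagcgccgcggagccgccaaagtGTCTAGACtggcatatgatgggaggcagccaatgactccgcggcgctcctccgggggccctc
ID1: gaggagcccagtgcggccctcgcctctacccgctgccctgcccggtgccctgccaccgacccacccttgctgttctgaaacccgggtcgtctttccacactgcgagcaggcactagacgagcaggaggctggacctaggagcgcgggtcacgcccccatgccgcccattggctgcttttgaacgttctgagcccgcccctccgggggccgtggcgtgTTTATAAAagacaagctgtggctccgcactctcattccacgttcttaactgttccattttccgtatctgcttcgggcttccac
ID2: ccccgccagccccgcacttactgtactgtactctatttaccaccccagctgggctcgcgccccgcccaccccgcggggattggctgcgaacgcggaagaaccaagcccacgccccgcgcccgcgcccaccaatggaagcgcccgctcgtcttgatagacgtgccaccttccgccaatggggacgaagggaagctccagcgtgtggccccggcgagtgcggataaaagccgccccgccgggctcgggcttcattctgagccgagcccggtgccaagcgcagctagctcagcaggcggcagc
ID3: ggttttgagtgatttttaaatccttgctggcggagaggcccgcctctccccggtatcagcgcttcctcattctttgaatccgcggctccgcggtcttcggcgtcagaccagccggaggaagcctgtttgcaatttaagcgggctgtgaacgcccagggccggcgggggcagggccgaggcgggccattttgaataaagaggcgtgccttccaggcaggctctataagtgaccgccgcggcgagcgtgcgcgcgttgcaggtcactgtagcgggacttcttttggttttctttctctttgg

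The SMAD6 window held GTCTAGAC directly before the start, a motif in 0.202% of the 35116 windows of the table. ID1 held overlapping TATA cores on both strands, a motif in 11.5% of windows, and the ID3 and ID2 windows matched none of the 5 motifs. INHBB matched GGCGCC at 3 places and the first of the BMP4 windows at 2, where 19.2% of windows hold it. No member window held TGACGTCA or TGATGNAAN, which occur in 1.85% and 3.61% of windows. A match describes letters only and says nothing of binding. As the motifs were chosen after the windows had been seen, these shares do not measure how unusual a match is.

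Beyond the 10 genes, 45 of 70 other listed genes of the activin and BMP pathways had enough counts to test. Of these 45, 9 rose, 1 fell and 35 did not pass. That is 10 of 45, where 11.4% of all genes passed. The median log2 fold change was 0.30 against 0.04 over all genes. The list was chosen with earlier results of these data known, so these values are a description only. Without control 1 none of 46 tested was called by edgeR, where 2.11% of all genes were called. At an unadjusted p under 0.05 there were 13, beside 2978 of 15615 over all genes. Without control 2 there were 2 calls, beside 2.52% of all genes, and without control 3 there were 4, beside 4.93%. Without FTO siRNA 3 there were 18 (13 higher and 5 lower), beside 30.0% of all genes. The counts by role that follow, over all libraries, stand beside 7.53% of all genes called higher and 3.83% lower.

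Among ligands, 2 of 8 tested genes rose and 6 did not pass. Among the 6, BMP2 had 180, 193 and 218 CPM with FTO siRNA, against 114, 242 and 216 CPM in controls. The log2 fold change of BMP2 was 0.047 ± 0.26 (adjusted p = 0.928). BMP6, a ligand that controls hepcidin, was at a much lower level. It had 1.24, 1.05 and 2.50 CPM with FTO siRNA, against 0.127, 0.305 and 0.121 CPM with control siRNA, with no overlap. BMP6 rose by 3.09 ± 0.57 on the log2 scale (adjusted p = 0.0127), and by 2.56 ± 0.49 without FTO siRNA 3 (adjusted p = 0.00557), on 86 counts over the FTO siRNA libraries and 9 over the controls. GDF15, a stress-induced member of the wider family, had 73.3, 69.4 and 151 CPM, against 28.2, 29.5 and 49.02 CPM in controls, and rose by 1.46 ± 0.34 (adjusted p = 0.0299), and by 0.98 ± 0.21 without FTO siRNA 3 (adjusted p = 0.00903). Of 8 antagonists tested, BMPER, which binds BMPs outside the cell, and FSTL3 rose and 6 did not pass. BMPER had 3.16, 3.83 and 4.80 CPM, against 1.01, 1.40 and 1.09 CPM in controls, and rose by 1.75 ± 0.29 (adjusted p = 0.00932), and by 1.55 ± 0.28 without FTO siRNA 3 (adjusted p = 0.00415). Calls were lost without control 1 for BMPER (adjusted p = 0.0677), BMP6 (0.0788) and GDF15 (0.14), without control 2 for GDF15 (0.128) and without control 3 for BMP6 (0.0605).

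Of 13 receptors and co-receptors, 2 rose and 11 did not pass. ACVRL1, a type I receptor known from endothelium, had 1.43, 1.48 and 4.19 CPM with FTO siRNA, against 0.57, 0.183 and 0.604 CPM with control siRNA, and rose by 2.40 ± 0.60 (adjusted p = 0.0381), and by 1.64 ± 0.44 without FTO siRNA 3 (adjusted p = 0.0209). BAMBI, a decoy receptor, had 314, 233 and 371 CPM, against 184, 179 and 204 CPM in controls, and rose by 0.69 ± 0.19 (adjusted p = 0.0493), and by 0.50 ± 0.13 without FTO siRNA 3 (adjusted p = 0.0205). Both lost the call without control 1, 2 or 3, and BAMBI also without FTO siRNA 1 (highest adjusted p 0.204). ACVRL1 also lost it without a composition factor (0.0517) and with limma-voom (0.0538), and BAMBI with RLE or no factors, with no filter or a stricter one and with limma-voom (0.0511 to 0.0653). The type II receptors were not called: ACVR2A had a log2 fold change of -0.022 ± 0.25, ACVR2B of -0.045 ± 0.25 and BMPR2 of -0.51 ± 0.21 (adjusted p = 0.966, 0.929 and 0.164). ACVR2A came to -0.36 ± 0.16 without FTO siRNA 3 (adjusted p = 0.119) and ACVR2B to -0.35 ± 0.20 without it (adjusted p = 0.205). BMPR2 did not overlap between groups, with 52.2, 75.4 and 95.8 CPM in FTO siRNA libraries against 107, 113 and 97.5 CPM in controls, and was called lower without FTO siRNA 3 (-0.76 ± 0.16, adjusted p = 0.00891), while it came to -0.32 without FTO siRNA 1 (adjusted p = 0.241). ACVR1, a BMP type I receptor, had a log2 fold change of 0.49 ± 0.16 (adjusted p = 0.0796), and of 0.37 ± 0.13 without FTO siRNA 3 (adjusted p = 0.059).

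Of 9 SMAD and SMURF genes, 2 rose and 7 did not pass. SMAD7, the inhibitory SMAD shared by the activin, TGF-beta and BMP branches, had 88.7, 88.5 and 101 CPM with FTO siRNA, against 55.1, 65.9 and 65.02 CPM with control siRNA. It rose by 0.58 ± 0.14 (adjusted p = 0.0342), and by 0.49 ± 0.12 without FTO siRNA 3 (adjusted p = 0.0138). The call was lost without any 1 library other than FTO siRNA 3 (highest adjusted p 0.204) and without a filter (0.0971). SMAD3, which carries activin signals, had 207, 234 and 265 CPM, against 108, 117 and 155 CPM in controls, and rose by 0.90 ± 0.18 (adjusted p = 0.0181), and by 0.78 ± 0.16 without FTO siRNA 3 (adjusted p = 0.00659); the call was lost without FTO siRNA 2, control 1 or control 2 (highest adjusted p 0.117). The BMP SMADs did not pass: SMAD1 had a log2 fold change of -0.082 ± 0.22 (adjusted p = 0.845) and SMAD5 of -0.35 ± 0.27 (adjusted p = 0.438). SMAD1 came to -0.24 ± 0.20 without FTO siRNA 3 (adjusted p = 0.392), and SMAD5 was called lower without it (-0.75 ± 0.17, adjusted p = 0.0119). Without FTO siRNA 1, SMAD5 came to -0.13 (adjusted p = 0.747).

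Among 7 tested targets and ID partners, 1 rose, 1 fell and 5 did not pass. HEY1, a repressor that BMP and Notch signals induce, had 4.15, 2.97 and 6.95 CPM, against 1.46, 1.46 and 0.664 CPM in controls, and rose by 1.98 ± 0.42 (adjusted p = 0.0211), and by 1.55 ± 0.34 without FTO siRNA 3 (adjusted p = 0.00939). TCF4, an E protein bound by ID proteins, had 19.1, 28.4 and 23.04 CPM, against 47.6, 50.1 and 37.5 CPM in controls, and fell by 0.94 ± 0.19 in log2 terms (adjusted p = 0.0193), and by 0.95 ± 0.20 without FTO siRNA 3 (adjusted p = 0.00732). Calls were lost without control 1 or control 2 for TCF4, and without any 1 control for HEY1 (highest adjusted p 0.0973). HAMP had 9.11, 6.61 and 32.1 CPM with FTO siRNA, against 5.77, 8.04 and 2.84 CPM with control siRNA. Only FTO siRNA 3 lay outside the range of the controls by a wide margin, 4.08 times the mean of FTO siRNA 1 and 2, and the log2 fold change was 1.53 ± 0.61 (adjusted p = 0.142), and 0.47 ± 0.34 without it (adjusted p = 0.32).

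**Figure D4:**
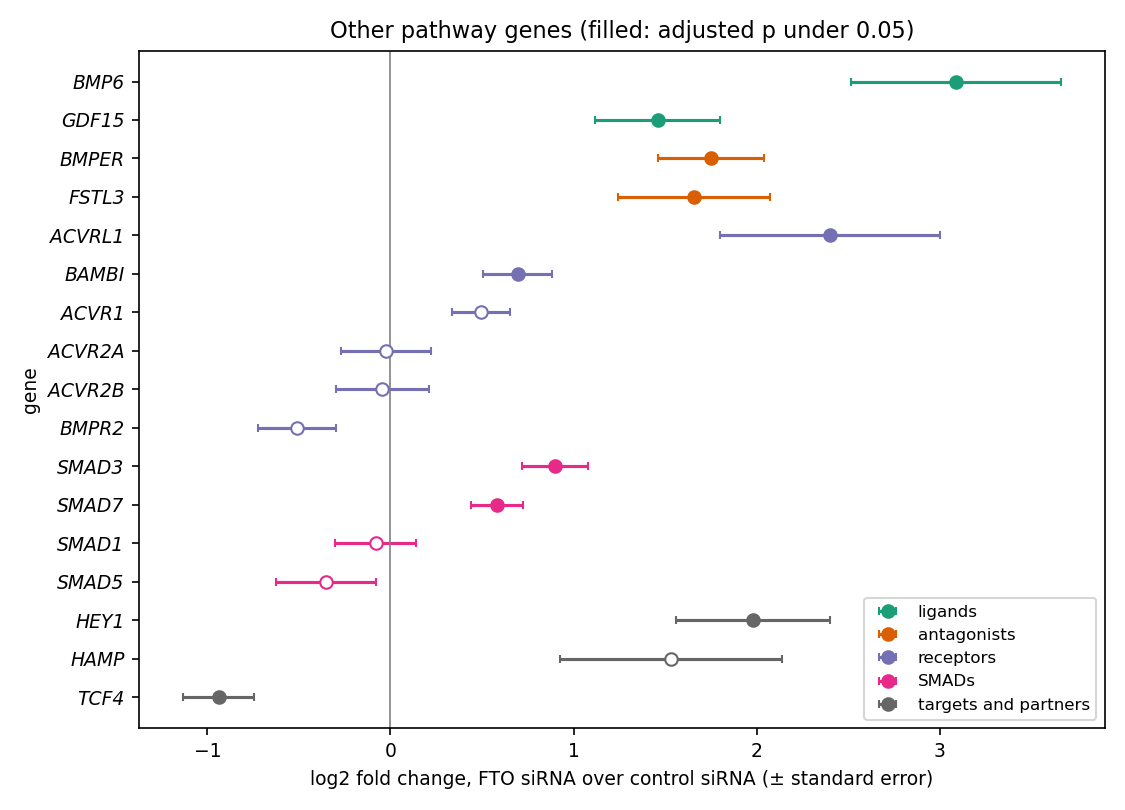
Log2 fold change, FTO siRNA over control siRNA over all 6 libraries, with its standard error, for other pathway genes grouped by role; filled points passed at an adjusted p under 0.05. BMP6 was the farthest to the right at 3.09 and TCF4 the farthest to the left at -0.94.

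Some listed markers of other cells rose with FTO siRNA, as INHBA and BMP6 did, and others did not. INHBA and BMP6 had few counts in HepG2 and were highest in FTO siRNA 3. Each count of markers that rose stands beside 7.53% of all tested genes called higher. Of 7 tested immune markers, 4 rose (PTPRC, CD3D, NKG7 and CD74). The summed level of the 10 listed was 77.8 to 111 CPM with FTO siRNA, against 52.2 to 102 CPM with control siRNA. LYZ, which was not called, supplied most of each sum; without it the other 9, a sum taken after the values had been seen, came to 27.6, 18.04 and 18.9 CPM in FTO siRNA libraries 1, 2 and 3, against 4.56, 4.69 and 5.43 CPM in controls 1, 2 and 3. Of 7 tested fibroblast and stellate markers, 3 rose (COL1A1, COL1A2 and TAGLN), while COL3A1, LUM, PDGFRA and PDGFRB were not called. The 10 listed summed to 277 to 614 CPM, against 117 to 203 CPM in controls. Of this, TAGLN supplied 464, 284 and 90.0 CPM with FTO siRNA, against 34.3, 55.3 and 91.3 CPM in controls, and its groups overlapped. DCN, ACTA2 and THY1 were listed at 0 in controls. Markers of other cell lines rose at 2 of 3 tested (KRT17 and LIN28A), and the 5 listed summed to 56.9 to 97.2 CPM, against 56.7 to 61.9 CPM. CDKN2A, which was not called, supplied most of each of these sums. The 8 endothelial markers summed to 15.3 to 24.3 CPM, against 20.3 to 25.6 CPM in controls. PECAM1 supplied most of each sum, was the 1 gene tested and did not pass. CDH5 had 3, 2 and 46 counts in FTO siRNA libraries 1, 2 and 3, against 2, 1 and 1 in controls. KDR was listed at 0 in every library. All 10 hepatocyte markers were measured in every library, at a sum of 15772 to 27892 CPM, against 23035 to 33020 CPM, and none of them was called. XBP1, a gene that hepatocytes are known to express, was also listed at 0 in every library, so a 0 in these tables need not mean that the RNA was absent. The part of these markers in the results above was not tested.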

How the data were processed

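RNA of 6 HepG2 libraries, 3 after FTO siRNA and 3 after control siRNA, was sequenced, and the authors deposited raw counts per Ensembl gene, 1 table per library. Per the submitters' processing notes, the tools were TopHat2 2.0.11, TopHat and HTSeq and the builds hg19 and GRCh37, with no role or order stated; strand and the handling of multiply matching reads were not given. Of 60483 identifiers, 56753 matched GENCODE 29, used for symbols and exon length (union of exons). Of the words of 50 bases in each member's longest transcript, 0.703% were shared with another gene for ID2 and 0% for the other members.

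Counts were filtered with filterByExpr, scaled by TMM and tested with edgeR 4.0.16 in R 4.3.3 (glmQLFit, legacy=FALSE, glmQLFTest, two-sided) on the group alone over all 15025 genes, with Benjamini-Hochberg adjustment at 0.05. CPM was computed from the counts. The steps were tested on simulated data. The members and gene lists were chosen with earlier results of these data known. Named genes were the members, FTO, up to 12 called pathway genes, 9 further pathway genes named whatever their result, and the 3 nearest profiles to each ID gene. Alternatives used DESeq2 1.42.0, limma 3.58.1 (voom), other scalings and filters, a replicate block and each library left out.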

Additional observations from a re-analysis of the deposited data

How the results depend on the processing

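The number of genes called over all genes was within 1.5 times of 1707 under the scalings and filters tried, DESeq2 and limma-voom. It was 1041 with the replicate number as a block (replicate block) and ranged from 330 to 4582 with 1 library left out. Of the 10 members, 1 was called under every scaling, filter and test tried and with the block. The number was 0 to 5 with 1 library left out, and 0 by edgeR without control 1 and without control 2. In each of these, 2 members had an unadjusted p under 0.05, beside 2978 of 15615 and 3041 of 15603 genes. Of the other pathway genes, 8 to 13 were called under the scalings, filters, tests and the block, and 0 to 18 with 1 library left out. The block took the calls of SMAD7 (adjusted p = 0.091) and BAMBI (0.0876). Deviations from the group means correlated at -0.162, -0.0746 and -0.28 for same-numbered libraries, and none correlated best with its own number. These deviations add to 0 within each group and FTO siRNA 3 stood apart, so this check cannot decide whether the libraries were paired.

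Fold changes near 0 turned sign. ID2 came to -0.014 with RLE factors, -0.036 without a filter, -0.014 with DESeq2 and -0.079 to 0.063 with 1 library left out. ACVR2A came to 0.038 and ACVR2B to 0.011 with upper quartile factors. With 1 library left out ACVR2A ranged from -0.36 to 0.14, ACVR2B from -0.35 to 0.15 and SMAD1 from -0.24 to 0.090. None of these values was called, and the cause was not tested. INHBC has no value at a minimum of 1 CPM in 3 libraries, which it did not reach. HAMP passed with DESeq2 (adjusted p = 0.0407). Depth limits INHBC, INHBB and INHBA most, at 3 to 82 counts per library.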

Other observations

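INHBE is known as a target of the integrated stress response, so 16 genes of that response and of the endoplasmic reticulum were looked up after the values of INHBE had been seen; they carry no test of their own as a list. FTO siRNA 3 was the highest of the 6 libraries for 10 of them, beside 29.9% of all tested genes. FGF21, counted among the 10, and XBP1 were not among the tested genes. ATF5, a transcription factor of the same response, ran the other way, with 110.3, 97.5 and 24.99 CPM in FTO siRNA libraries 1, 2 and 3, against 69.2, 69.3 and 81.9 CPM in controls 1, 2 and 3. The amino acid enzyme ASNS had 47.5, 48.7 and 436 CPM in FTO siRNA libraries 1, 2 and 3, against 47.5, 40.3 and 46.3 CPM in controls 1, 2 and 3, much like INHBE in having 1 high library. ATF3 (20.2, 22.5 and 115 CPM, against 5.77, 10.2 and 10.9) and CHAC1 (6.38, 7.91 and 44.1 CPM, against 3.86, 2.25 and 3.32) were higher in every FTO siRNA library and highest in FTO siRNA 3. Their transcription factor ATF4 had 745, 587 and 554 CPM, against 467, 468 and 475. DDIT3 had 29.4, 30.2 and 22.2 CPM, against 13.6, 15.8 and 15.9. Both lay above every control in each FTO siRNA library, and neither was highest in FTO siRNA 3. Over all libraries, 6 of the 16 genes were called higher by edgeR, DDIT3 among them and ATF4 not, beside 7.53% of all tested genes. The chaperone HSPA5 had 1295, 1132 and 1220.4 CPM, against 1213, 1330.2 and 1231, and the groups overlapped. XBP1 was listed at 0 in every library, which need not mean that its RNA was absent. FGF21, another factor secreted by hepatocytes, had 0, 0.0618 and 3.22 CPM, and was listed at 0 in all controls.

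The 3 genes whose profile over the libraries was nearest to that of INHBE, chosen after its values had been seen, were BEST1 (2.29, 1.79 and 28.4 CPM in FTO siRNA libraries, against 1.52, 1.04 and 0.785 in controls), ADM2 (5.89, 5.31 and 63.6 CPM, against 3.86, 4.02 and 3.32) and TXNIP (14.7, 13.03 and 206 CPM, against 6.21, 7.13 and 6.82). In the order of protein-coding genes on chromosome 12 in GENCODE 29, INHBE stands between INHBC and GLI1. GLI1 had 0.62, 0.309 and 8.84 CPM in FTO siRNA libraries, against 1.46, 2.13 and 0.724 in controls, and in FTO siRNA 3 it was 19.04 times the mean of FTO siRNA 1 and 2. Of the 10 nearest protein-coding genes in this order, 9 had counts, and for 8 of these the ratio was above 1. The share of all genes with a ratio above 1 was not determined, so this count cannot be read as a trait of this stretch. On the side of INHBC it was 5.51 for INHBC, 1.78 for R3HDM2, 4.21 for STAC3 and 6.91 for NDUFA4L2; beyond GLI1 it was 4.04 for ARHGAP9, 1.62 for MARS, 0.746 for DDIT3 and 1.39 for MBD6. INHBC, STAC3, NDUFA4L2, GLI1 and ARHGAP9 lay under 10 CPM in every library. INHA, the inhibin alpha subunit that pairs with beta subunits, had 3, 2 and 55 counts in FTO siRNA libraries, against 1, 1 and 0 in controls.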
